A study of Mus musculus with 3 samples.

Results

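Oxidative phosphorylation is carried out by 5 protein complexes of the inner mitochondrial membrane, and its genes were taken from the count tables by symbol. Members were the genes whose symbols start with Nduf, Sdh, Uqcr, Cox4, Cox5, Cox6, Cox7, Cox8 or Atp5, and the mitochondrial genes that start with mt-Nd, mt-Co, mt-Cytb or mt-Atp. The rule uses names only and no measured value. It found 104 of the 14221 genes listed in any of the 3 tables, 13 of them in the mitochondrial genome and 91 in the nucleus. All 104 were listed in both wild type tables and 103 in the deficient table, which does not list Cox7a1.

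CD11b+ CD45+ cells were sorted from mouse brain after enzymatic digestion, and 1 droplet library of 3′ transcript ends was made from each of 3 mice. WT 1 and WT 2 came from adult wild type mice. The third, here called the deficient library, came from an MHC class II-deficient mouse with almost no CD4 T cells. With 1 such animal, the spread within that group is unknown. The sources used here give no strain, sex or litter for any mouse and no age for the deficient one.

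The respiratory chain passes electrons from NADH (complex I) or succinate (complex II) through ubiquinone, complex III and cytochrome c to oxygen at complex IV. Complexes I, III and IV pump protons, and complex V, the ATP synthase, lets them back to make ATP. Complexes I, III, IV and V each join subunits of both genomes, while every subunit of complex II is nuclear, so the cell has to match the output of its own genome with that of its mitochondria. In microglia, the resident macrophages of the brain, and in other myeloid cells the balance of oxidative phosphorylation and glycolysis is known to differ with activation and lineage.

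By complex, the members comprised 36 nuclear and 7 mitochondrial subunits of complex I, 4 nuclear subunits of complex II, 8 nuclear and 1 mitochondrial subunit of complex III, 14 nuclear and 3 mitochondrial subunits of complex IV, and 15 nuclear and 2 mitochondrial subunits of complex V. The nuclear subunits thus number 77. A further 12 members were assembly factors of complexes I and II (Ndufaf and Sdhaf genes), 1 was the supercomplex factor Cox7a2l, and Atp5s is not counted as a subunit. Of the tissue-restricted isoforms looked for, Cox4i2, Cox8b and Ndufa4l2 were listed in no table.

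The tables held 2278 to 4815 barcodes and 6616662 to 17293844 unique molecular identifiers (UMIs, 1 per counted transcript) per library. Cells were clustered without the members among the genes used, and clusters were called microglia-like, neutrophil-like and so on from marker lists, names used below without the ending. In WT 1, WT 2 and the deficient library, in that order, 3901, 4398 and 2202 cells were microglia, with median depths of 3376, 3325.5 and 2826 UMIs. H2-Aa, H2-Ab1 and H2-Eb1, the classical class II chains, stood at 186, 235.4 and 161.6 CPM (UMIs per 1e6 UMIs) over all cells of WT 1 and at 204.5, 257.9 and 170.3 CPM over those of WT 2, and were not listed in the deficient table. Libraries shared 13 to 30 barcodes per pair.

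In microglia, the transcripts of the mitochondrial genome held a larger share of UMIs in the deficient library than in either WT library, while those of nuclear subunits lay above both WT libraries by less, with a wider gap between the WT libraries. Summed over the 13 mitochondrial genes, the level was 9201 CPM (WT 1), 9132 CPM (WT 2) and 11109 CPM (deficient). The deficient library lay above both, at a log2 ratio of 0.28 to the WT mean, against 0.01 between the WT libraries. The 77 nuclear subunits summed to 10668, 11477 and 11851 CPM, a log2 ratio of 0.10 to the WT mean, and WT 1 itself stood 0.11 below WT 2. Against WT 1 alone the nuclear log2 ratio was 0.15, and against WT 2 alone 0.05. The ratio of mitochondrial to nuclear subunit UMIs was 0.862 (WT 1), 0.796 (WT 2) and 0.937 (deficient). No test was made of these sums, since permuting 2 libraries against 1 cannot give a small p.

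The share and the number per cell have to be told apart. Per microglial cell, the mitochondrial genes gave a mean of 32.9, 32.6 and 32.4 UMIs in WT 1, WT 2 and the deficient library, and so were level in number. Nuclear subunits gave 38.1, 41.0 and 34.6 UMIs per cell. All genes together gave 3571, 3570 and 2921 UMIs per cell, lowest in the deficient library. The higher mitochondrial share in the deficient library therefore went with a lower total per cell, and whether cells held less RNA or the library caught less of it cannot be told apart. After thinning every microglial cell to 1000 UMIs, which left out 56, 54 and 43 shallower cells, the mitochondrial log2 ratio was again 0.28. Thinning keeps the expected proportions of each cell, so it could not decide this question. The mean of the shares of single cells also gave 0.28.

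The mitochondrial genome is read as long transcripts that are cut into the messages, and 2 neighbouring pairs of reading frames share bases on 1 message. These overlaps are shown because a UMI from such a message cannot always be given to 1 gene of the pair. They were read from GENCODE release M21 transcripts (build mm10) on the plus strand, with the shared bases in capitals and 12 bases on each side. The first, chrM:7915-7981, joins mt-Atp8 to mt-Atp6 over 43 bases, and the second, chrM:10155-10185, joins mt-Nd4l to mt-Nd4 over 7 bases.
mt-Atp8 and mt-Atp6: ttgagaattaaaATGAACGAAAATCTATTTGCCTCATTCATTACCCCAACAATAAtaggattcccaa
mt-Nd4l and mt-Nd4: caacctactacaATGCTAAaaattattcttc
In both lines the capitals open with ATG, the start codon of the downstream frame.

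In microglia mt-Atp8 stood at 6.84, 7.16 and 8.74 TMM-normalised CPM (scaled by library composition) in WT 1, WT 2 and the deficient library, and mt-Atp6 at 1768, 1831 and 2230 CPM. Both genes encode subunits of complex V and both were highest in the deficient library. The upstream mt-Nd4l stood at 41.4, 41.7 and 52.4 CPM and mt-Nd4 at 707.6, 716 and 861 CPM. UMIs were counted at 3′ ends and not scaled by length, so these levels are not compared between genes. The only mitochondrially encoded member on the minus strand, mt-Nd6 (chrM:13552-14070), stood at 6.34, 4.86 and 6.87 CPM and overlaps mt-Nd5 by 14 bases.

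Of the members, 103 could be tested in microglia, and 1 was called, mt-Cytb, which encodes cytochrome b, the only mitochondrial subunit of complex III (chrM:14145-15288, plus strand). Its TMM-normalised level was 1196 CPM (WT 1), 1255 CPM (WT 2) and 1656 CPM (deficient), the last above both others. The log2 fold change came to 0.43 (SE 0.11, adjusted p = 0.0265, edgeR quasi-likelihood test with Benjamini-Hochberg adjustment over 11859 genes). Over all genes tested, 8.23% were called, 1.64% higher and 6.59% lower, so 1 higher and 0 lower of 103 members is no larger share than the background. At an unadjusted p under 0.05 there were 15 of the 103 members, a smaller share than the 2324 of all 11859 genes. DESeq2 and limma voom also called mt-Cytb alone (adjusted p = 0.00214 and 0.0191).

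**Figure D1:**
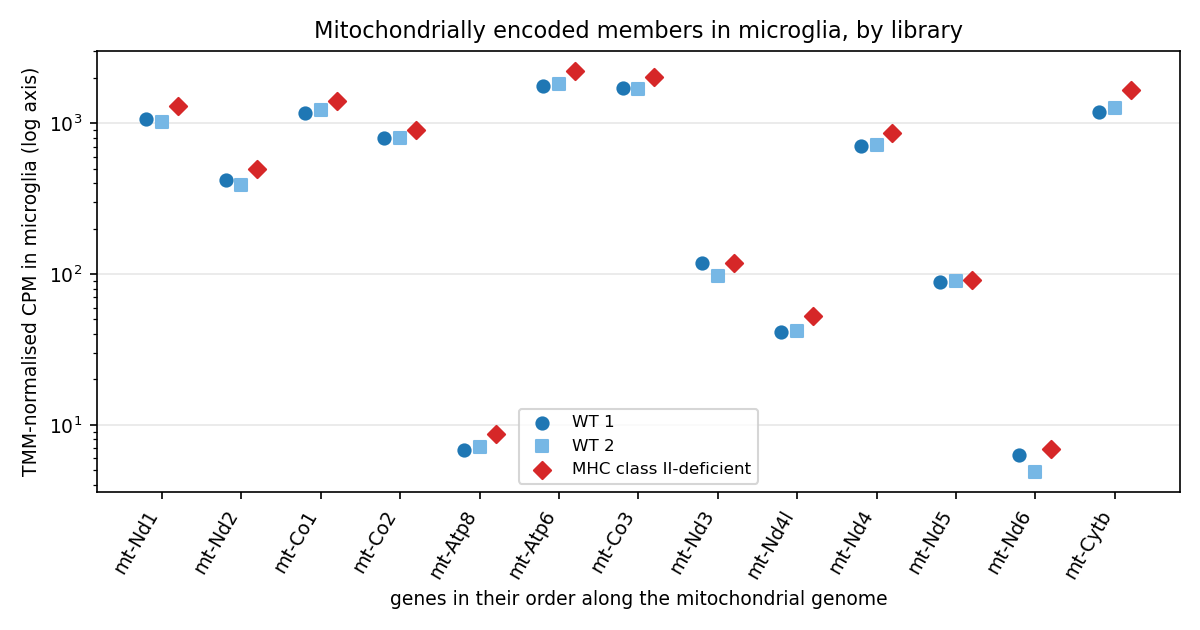
TMM-normalised CPM (log axis) of the 13 mitochondrially encoded members in microglia, with 1 point for each library and genes in their order along the genome. In 12 of the 13 genes the deficient library is the highest of the 3, and for mt-Nd3 it lies inside the WT range.

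All 13 mitochondrial genes had a log2 fold change above 0, from 0.04 to 0.43 with a median of 0.29, and 12 lay above both WT libraries. Over all genes tested, the median was -0.00 and 40% lay above both WT libraries. Among the 1645 genes that averaged 100 CPM or more these were 0.04 and 50.3%. The mitochondrial genes come from shared transcripts, so they are not independent of one another.

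Among the complex I genes of the mitochondrial genome, which build its membrane arm, mt-Nd1 stood at 1069, 1019 and 1299 CPM (log2 fold change 0.31, SE 0.11, adjusted p = 0.115). For mt-Nd2 the values were 420.3, 392.6 and 495.4 CPM (0.29, SE 0.10, adjusted p = 0.117). The WT values of both genes lay close together and the deficient value lay above them, yet neither passed. The least different were mt-Nd5, at 88.0, 89.8 and 91.2 CPM, and mt-Nd3, at 119.1, 97.2 and 117.7 CPM, inside the WT range.

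The 3 mitochondrial subunits of complex IV, which form its core, lay above both WT libraries without passing. For mt-Co1, the catalytic subunit, the values were 1180, 1229 and 1399 CPM (log2 fold change 0.22, adjusted p = 0.324). The values were 805.2, 794.1 and 910 CPM for mt-Co2 (0.19) and 1725, 1686 and 2024 CPM for mt-Co3 (0.25). Of the complex V genes, mt-Atp6 had a fold change of 0.31 (SE 0.12, adjusted p = 0.150) and mt-Atp8 one of 0.32 (SE 0.23).

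None of the 90 nuclear members tested was called by edgeR, DESeq2 or limma voom. By edgeR 9 had an unadjusted p under 0.05, a smaller share than the 2324 of all 11859 genes. After thinning cells to 1000 UMIs, edgeR called 2 of them, the assembly factor Ndufaf4 (0.56, adjusted p = 0.0143) and Uqcr11 of complex III (0.41, adjusted p = 0.0140). Of all 10659 genes tested after thinning, 166 were called higher. Without thinning, the 90 nuclear members had a median log2 fold change of 0.10. Of them, 57 (63.3%) lay above both WT libraries, 18 inside the WT range and 15 below it. Of all genes, 40% lay above both WT libraries and 40.4% below, and 50.3% of those at 100 CPM or more lay above. Of the same 90 genes, 80 were lower in WT 1 than in WT 2, with a median log2 ratio of -0.13, so the WT libraries also differed in one direction.

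In complex I, the 7 nuclear core subunits, which carry the flavin and iron-sulphur centres, had a median of 0.03 and the other 29 one of 0.13. The highest counts belonged to Ndufa13, Ndufc2 and Ndufa2, supernumerary subunits. Ndufa13 stood at 200.6, 234.6 and 268.8 CPM. Its fold change on the log2 scale, 0.30 (SE 0.11, adjusted p = 0.105), was the largest increase of the nuclear subunits tested. The gap between the WT libraries was about as wide as that from WT 2 to the deficient library. Ndufc2 stood at 206.2, 225 and 229.8 CPM and Ndufa2 at 178.8, 198 and 200.4 CPM, both with WT 2 and the deficient library close together.

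Complex II, succinate dehydrogenase, links the chain to the tricarboxylic acid cycle and had a median of -0.03. Sdha, its flavoprotein, stood at 125.8, 132.6 and 129.6 CPM, and Sdhb, its iron-sulphur protein, at 135.5, 151 and 137.5 CPM, both inside the WT range. Sdhd, a membrane anchor, stood at 72.3, 76.5 and 69.9 CPM.

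In complex III, Uqcrb stood at 227.2, 249.1 and 247.9 CPM, Uqcrh, the hinge protein, at 199.96, 227.6 and 240.7 CPM, and Uqcrq at 177, 184.3 and 183.1 CPM. Of these 3, Uqcrh lay above both WT libraries, by a log2 fold change of 0.17 (adjusted p = 0.396), and the other two inside the WT range. Over the 8 nuclear subunits, 4 lay above, 2 inside and 2 below, where 40% of all genes lay above and 40.4% below. The nuclear Uqcr genes as a set had a median of 0.10, against 0.43 for their mitochondrial partner mt-Cytb.

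In complex IV, 11 of 13 tested nuclear subunits lay above both WT libraries, against 40% of all genes and 50.3% of those at 100 CPM or more, with a median of 0.16. Cox4i1, the common form of subunit 4, stood at 441.6, 480.7 and 520.7 CPM (log2 fold change 0.18, adjusted p = 0.398). Cox8a stood at 312.8, 339.2 and 384.3 CPM (0.24, adjusted p = 0.200) and Cox7c at 299.1, 340 and 360.6 CPM (0.17, adjusted p = 0.407). In each the deficient library was highest and WT 1 lowest, and none passed. Ndufa4, named for complex I but a subunit of complex IV, stood at 189.5, 218.5 and 228.5 CPM.

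The isoforms that other tissues use were scarce in microglia. Cox6a2, the heart and muscle form of subunit 6a, had 62, 84 and 38 UMIs in all microglia (4.42, 5.37 and 5.93 CPM). Cox6b2, the testis form of subunit 6b, had 32, 34 and 8 UMIs (2.28, 2.17 and 1.25 CPM), a fold change of -0.83 with an SE of 0.51 (adjusted p = 0.412). Cox7a1, a muscle form, had 14 and 15 UMIs in the WT libraries. Cox7a2l, the factor that holds complexes III and IV together, stood at 271.1, 280.9 and 311.2 CPM (adjusted p = 0.353).

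In complex V, 9 of 15 nuclear subunits lay above both WT libraries and 4 below, with a median of 0.07. The 60% above compares with 40% of all genes and 50.3% of those at 100 CPM or more. Atp5b and Atp5a1, the beta and alpha subunits of the head, stood at 341.4, 347.3 and 308.6 CPM and at 268.01, 264.05 and 246.1 CPM, below both WT libraries (log2 fold changes -0.16 and -0.11, adjusted p = 0.419 and 0.578). Atp5l, subunit g of the membrane part, stood at 230.03, 263.6 and 272.2 CPM (0.14, adjusted p = 0.509). None of these differences passed.

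**Figure D2:**
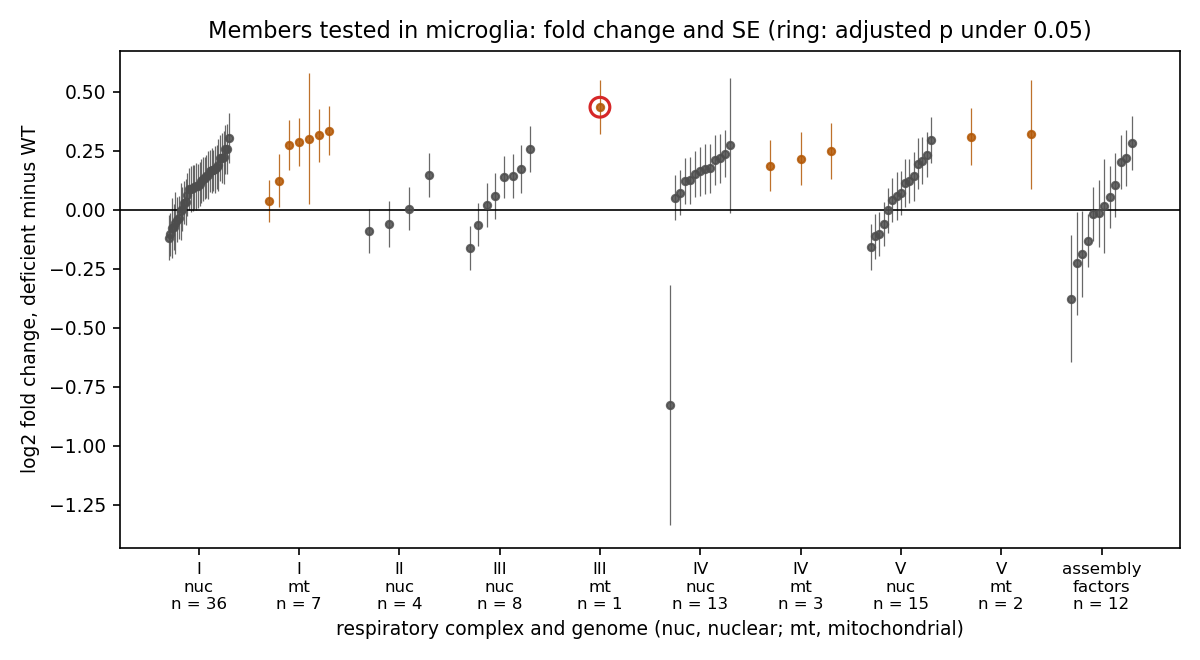
Log2 fold change of each tested subunit and assembly factor in microglia, deficient minus WT, grouped by complex and genome, with the SE as bars. The ring marks mt-Cytb, the only member past the threshold, and all orange points (mitochondrially encoded) lie above 0.

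The 12 assembly factors, which build complexes I and II and are not part of them, had a median of -0.00. Of them, 5 lay above, 2 inside and 5 below the WT range, where 40% of all genes lay above and 40.4% below. Other genes of the pathway were counted from lists, to be read against the 1.64% of all tested genes called higher and the 6.59% called lower. Of 6 complex III assembly genes, 1 was called, Bcs1l, which inserts the iron-sulphur protein, at 15.7, 14.6 and 22.01 CPM (log2 fold change 0.54, SE 0.15, adjusted p = 0.0342). Of 17 complex IV assembly and copper genes, 1 was called, Cox15, which makes heme A, at 9.91, 8.82 and 4.68 CPM (-0.996, SE 0.26, adjusted p = 0.0249).

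Of 21 genes for electron carriers and nucleotide exchange, 2 fell (9.52%, against 6.59% of all genes) and none rose. Both act on ubiquinone. Coq2, which joins the side chain to the ring of ubiquinone, stood at 38.9, 40.1 and 7.18 CPM (log2 fold change -2.46, SE 0.17, adjusted p = 8.12e-08), and Coq10a, a ubiquinone-binding protein, at 11.1, 9.65 and 3.28 CPM (-1.66, SE 0.28, adjusted p = 0.000918). In both the WT libraries lay together and far above the deficient one. Slc25a5, an ATP and ADP exchanger with the highest count of the list, stood at 559.8, 578.6 and 523.2 CPM and was not called. Over the list the median log2 fold change was -0.12.

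Of 19 tricarboxylic acid cycle genes, 1 fell, Fh1, the fumarase, at 30.9, 31.4 and 22.5 CPM (log2 fold change -0.47, adjusted p = 0.0393), and of 17 glycolysis genes none passed, with medians of -0.02 and -0.00. Among 20 genes for mitochondrial transcription and its nuclear regulators, 2 fell (10%, against 6.59% of all genes). Yy1, a zinc finger factor that binds promoters of many respiratory genes, stood at 105.7, 99.2 and 45.6 CPM (-1.17, SE 0.10, adjusted p = 1.1e-06), and Esrra, the estrogen-related receptor alpha, at 21.1, 21.9 and 9.05 CPM (-1.25, SE 0.17, adjusted p = 0.000127). Of 77 mitochondrial ribosome genes, 1 rose and 2 fell, with a median of 0.03. Of 93 cytosolic ribosome genes, 5 rose and none fell, with a median of 0.22, so ribosomal transcripts stood higher in the same library.

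Promoters of nuclear members were searched because these genes are known to share binding motifs. Of 91 nuclear members, 78 matched a RefSeq promoter (build GRCm38.p6), and the 300 bases around each start, most of them before it, were read on both strands. A gene with several listed starts held a motif if any of them did. The core palindrome of NRF1 (the capitals of the Cox6a1 line) was in 7 members (8.97%), against 1.07% of 27025 promoters and 2.55% of those of tested genes. The YY1 motif AAGATGGCG was in 8 (10.3%), against 1.64% and 3.87%. The ETS motif CCGGAAGT of GABP was in 5 (6.41%), against 4.31% and 9.78%, and the Sp1 motif GGGCGG in 38 (48.7%), against 38.2% and 67.7%. The NRF1 and YY1 letters were thus more frequent in members than in both backgrounds and the other 2 less frequent than among tested genes, as descriptions with no test. One window is shown for each of NRF1, YY1 and ETS, with the motif in capitals and all on the minus strand of the genome. Each comes from the holder with the highest count among members whose motif lies wholly before the start, so Cox8a (ETS) and Atp5j2 (YY1), where it crosses or follows the start, are not shown.
Cox6a1 (NRF1, chr5:115349066-115349165): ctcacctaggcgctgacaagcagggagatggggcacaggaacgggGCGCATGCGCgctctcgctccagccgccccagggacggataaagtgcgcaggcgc
Atp5j (YY1, chr16:84835011-84835109): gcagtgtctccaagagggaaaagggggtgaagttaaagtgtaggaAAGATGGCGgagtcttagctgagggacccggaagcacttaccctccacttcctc
Atp5h (ETS, chr11:115419920-115420003): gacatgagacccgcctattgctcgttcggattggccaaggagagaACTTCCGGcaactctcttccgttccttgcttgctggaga
In Atp5h the motif reads in reverse. The 8 members with the YY1 letters had a median log2 fold change of 0.13 and none was called, against 0.10 for the 69 tested members without them, beside the fall of Yy1 itself.

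Markers and depth moved with the deficient library as well. The 13 neutrophil markers summed to 1415, 819 and 254.1 CPM in microglia of WT 1, WT 2 and the deficient library, with 0, 0 and 1 of them at 0, and the 25 immediate early genes to 28236, 18450 and 10520 CPM. Of these 25 genes, 19 fell in the deficient library. Without the microglial states led by immediate early or proliferation genes (states 3, 4 and 6, described with the states), the mitochondrial log2 ratio was again 0.28 and that of nuclear subunits 0.07. Without them 4 mitochondrial genes were called: mt-Cytb (0.44, adjusted p = 0.00173), mt-Nd1 (0.33, adjusted p = 0.04), mt-Nd2 (0.31, adjusted p = 0.0422) and mt-Nd4 (0.32, adjusted p = 0.0439), by edgeR. Without those states, 4 of 103 members and 276 of all 11535 genes tested were called higher, against 195 of 11859 genes with them. The part of the neutrophil markers in the result was not tested.

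The classes are clusters of the same cells and the values are descriptions with no test. Levels of single genes in microglia were TMM-normalised up to this point. CPM by class and state are not, so microglial values of the same gene differ slightly. Log2 ratios of single genes between classes or states were taken after adding 1 CPM to both values. Neutrophils kept nuclear subunit transcripts at the level of microglia and had fewer mitochondrial ones. In 282 neutrophils of WT 1 and 135 of WT 2, nuclear subunits summed to 11645 and 11699 CPM, 1.09 and 1.02 times the microglia of the same library. The mitochondrial genes summed to 5039 and 4977 CPM, 0.548 and 0.545 times microglia. In the deficient library, 19 neutrophils with 50000 UMIs gave 10340 and 3540 CPM.

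**Figure D3:**
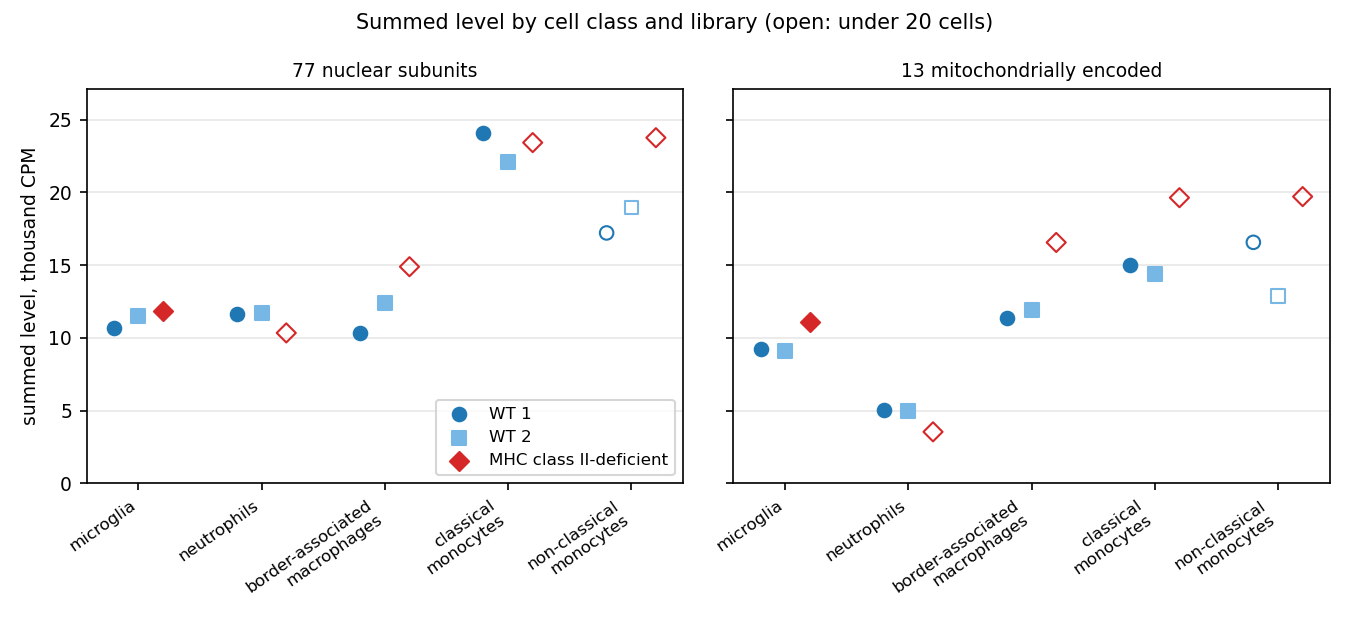
Summed level of the 77 nuclear subunits (left) and the 13 mitochondrially encoded members (right), in units of 1000 CPM, by cell class, with 1 point for each library and open points for fewer than 20 cells. Neutrophils lie with microglia on the left and lowest on the right, and monocytes lie highest on the left.

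The low mitochondrial level of neutrophils was unequal along the genome. Of the 11 mitochondrial genes described by class, 10 were lower in neutrophils of both WT libraries. The furthest below were mt-Nd2, at 103.7 and 82.0 CPM against 423.4 and 391.2 CPM in microglia (mean log2 ratio -2.13), and mt-Nd1, at 285.5 and 214.6 CPM against 1077 and 1015 CPM (-2.07). In contrast mt-Co1 stood higher, at 1432 and 1455 CPM against 1188 and 1225 CPM (0.26). These genes are neighbours, since mt-Co1 is the next member after mt-Nd2. Among the others, mt-Co2 (-0.46), mt-Co3 (-0.81) and mt-Atp6 (-1.04) lay nearest to microglia and mt-Cytb (-1.60) and mt-Nd3 (-1.52) further below, with no steady order along the genome.

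Nuclear genes of neutrophils also differed among themselves. The 7 nuclear core subunits of complex I summed to 267.8 and 251.2 CPM against 635.7 and 662.3 CPM in microglia, and complex II to 203.9 and 177.9 CPM against 399 and 420.7 CPM. Lowest against microglia were Ndufs3, a core subunit (20.4 and 33.1 CPM against 107.03 and 107.5 CPM), Ndufa9 (31.03 and 29.7 CPM against 114.6 and 120.4 CPM) and Sdha (47.9 and 29.7 CPM against 126.8 and 132.2 CPM). Highest were the supernumerary Ndufa1 (196 and 244.2 CPM against 76.8 and 91.7 CPM) and Ndufb7 (280.2 and 321 CPM against 111.8 and 121.2 CPM), and Atp5e, the epsilon subunit of complex V (504.5 and 415.2 CPM against 208.3 and 225.8 CPM). Of 74 nuclear subunits, 32 were higher and 37 lower in both WT libraries, so the near-equal sum held opposite differences. Neutrophils also had fewer assembly factor transcripts, at 113.5 and 136.1 CPM against 313.7 and 332.6 CPM.

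**Figure D4:**
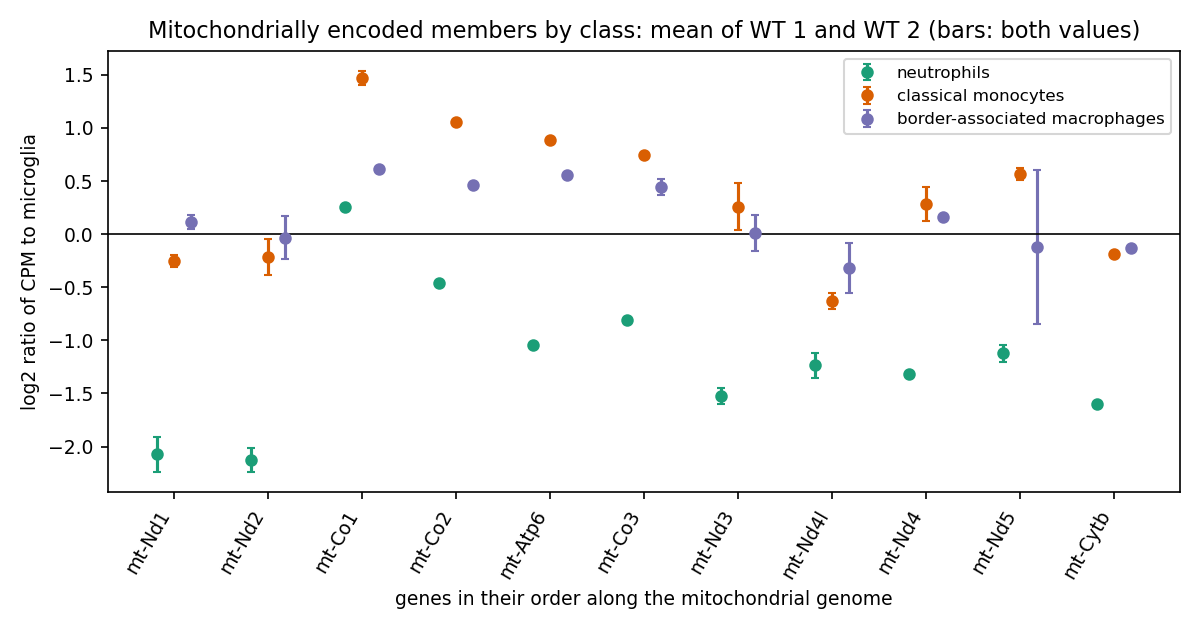
Log2 ratio of CPM in neutrophils, classical monocytes and border-associated macrophages to microglia for 11 mitochondrially encoded members, as the mean of WT 1 and WT 2 with bars to both values. In each class mt-Co1 has the highest ratio (0.26, 1.47 and 0.61), and in neutrophils every other gene lies below 0.

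Classical monocytes, which come from the blood, had the highest levels of the classes with at least 20 cells in a library. In 43 and 30 cells of WT 1 and WT 2, nuclear subunits summed to 24096 and 22110 CPM, 2.26 and 1.93 times microglia, and mitochondrial genes to 15025 and 14411 CPM, 1.63 and 1.58 times. The deficient library gave 23423 and 19635 CPM from 4 cells. Of 75 nuclear subunits, 65 were higher and 2 lower than in microglia in both WT libraries. Uqcrh stood at 650.3 and 757.9 CPM against 201.4 and 226.8 CPM, and Atp5l at 877.4 and 773.8 CPM against 231.7 and 262.7 CPM. Lowest were Ndufs1, at 25.2 and 39.9 CPM against 36.3 and 42.5 CPM, Ndufc2, at 201.8 and 171.5 CPM against 207.8 and 224.2 CPM, and Sdhc, at 47.6 and 63.8 CPM against 62.9 and 61.8 CPM.

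The largest ratio belonged to Cox6b2, the testis isoform. It had 13 UMIs in classical monocytes of each WT library, 36.4 and 51.9 CPM, against 2.30 and 2.17 CPM in microglia, 3.55 and 6.98 CPM in neutrophils (4 UMIs each), and 4.67 and 10.3 CPM in border-associated macrophages (2 and 5 UMIs). The 4 deficient monocytes had 0 UMIs of it, at a depth where 3 UMIs would be 116 CPM. The counts are small and rest on 73 cells.

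In monocytes too the mitochondrial genes moved apart. For mt-Co1 the values were 3454 and 3247 CPM against 1188 and 1225 CPM in microglia (mean log2 ratio 1.47), and for mt-Co2 1704 and 1635 CPM against 811.2 and 791.4 CPM (1.06). In contrast mt-Nd1 stood at 869 and 885.5 CPM against 1077 and 1015 CPM (-0.25) and mt-Cytb at 1046 and 1113 CPM against 1205 and 1251 CPM (-0.19). Of the 11 genes, mt-Co1 had the highest ratio to microglia in neutrophils and in classical monocytes alike.

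Border-associated macrophages, which live in the meninges and around vessels, had a nuclear sum near that of microglia and a higher mitochondrial one. In 73 and 68 cells of the WT libraries, nuclear subunits summed to 10367 and 12379 CPM (0.972 and 1.08 times microglia) and mitochondrial genes to 11377 and 11893 CPM (1.24 and 1.30 times). The nuclear sum held opposite differences, with 23 of 74 subunits higher and 26 lower in both WT libraries. Complex IV stood at 1.11 and 1.23 times microglia and complex II at 0.748 and 0.899 times. Again mt-Co1 had the highest ratio, at 1792 and 1894 CPM, followed by mt-Atp6, at 2652 CPM in both. Of the nuclear genes, Ndufc2 was lowest (135.3 and 124.04 CPM) with Uqcrc1 (86.3 and 103.4 CPM) and Uqcrc2 (67.7 and 78.6 CPM), the core proteins of complex III. Atp5l (284.6 and 382.5 CPM), Uqcrh (286.9 and 283.2 CPM) and Cox5b (172.6 and 223.3 CPM) were highest. The 15 deficient cells gave 14892 and 16559 CPM, the highest of the 3 libraries, at a depth of 62384 UMIs.

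Non-classical monocytes numbered 10, 12 and 15 in the 3 libraries and had nuclear sums of 17214, 18969 and 23760 CPM. Depth and ribosomal content differed between the classes alongside these levels. Median depth in WT 1 was 3376 UMIs in microglia, 2991 in neutrophils, 4920 in border-associated macrophages and 7359 in classical monocytes, and cytosolic ribosome transcripts took 6.47%, 3.73%, 10.4% and 16.4% of UMIs. Their part in the class differences was not tested. Thinning to 1000 UMIs keeps the expected proportions of each cell and so could not test depth. After it, the mean log2 ratios of mitochondrial genes to microglia were -1.01, 0.52 and 0.76 in neutrophils, border-associated macrophages and classical monocytes.

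Microglial states were obtained by clustering the microglia again without the members. State 4, led by Maff, Klf4, Fosb and other immediate early genes that cell dissociation is known to induce, had 388, 335 and 50 cells. Its nuclear subunits summed to 8205, 8543 and 7785 CPM, against 11253, 11891 and 11867 CPM in state 0, the main state of the WT libraries. The ratios were 0.729, 0.718 and 0.656, all below 1. The mitochondrial genes summed to 9486, 8876 and 10928 CPM against 9158, 9032 and 9951 CPM, with ratios of 1.04, 0.983 and 1.10.

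Of 74 nuclear subunits, 62 were lower in state 4 than in state 0 in every library. Ndufa13 was lowest, at 111.5, 117.2 and 98.5 CPM against 210.2, 249.3 and 324.4 CPM, followed by Ndufb10 (79.3, 73.9 and 44.3 CPM against 127.0, 133.3 and 171.4 CPM) and Ndufv3 (71.0, 62.9 and 34.5 CPM against 103.4, 114.1 and 104.0 CPM). At the other end, Ndufv1 had the highest mean log2 ratio (0.25), at 64.3, 40.4 and 44.3 CPM against 58.7, 46.5 and 24.5 CPM. It was lower in WT 2 and higher in WT 1 and the deficient library. Atp5a1 stood at 257.7, 270.8 and 271 CPM against 276.4, 269.6 and 275.4 CPM, and so hardly differed. Ndufa12, at 69.5, 69.9 and 54.2 CPM against 90.2, 90.2 and 30.6 CPM, was lower in the WT libraries and higher in the deficient one, where state 0 has 54 cells.

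In number per cell, nuclear subunits were higher in state 4 than in state 0 in both WT libraries and lower in the deficient one. Nuclear subunits gave 40.8, 44.2 and 31.6 UMIs per cell in state 4 and 37.3, 40.6 and 35.9 in state 0, while all genes gave 4971, 5170 and 4059 against 3317, 3413 and 3026 UMIs. The immediate early and heat shock lists took 10.1%, 9.60% and 8.76% of UMIs in state 4 and 1.502%, 1.24% and 1.55% in state 0. With those genes left out of the total, nuclear subunits stood at 9123, 9450 and 8532 CPM against 11425, 12040 and 12053 CPM. The difference was therefore present without them and smaller.

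**Figure D5:**
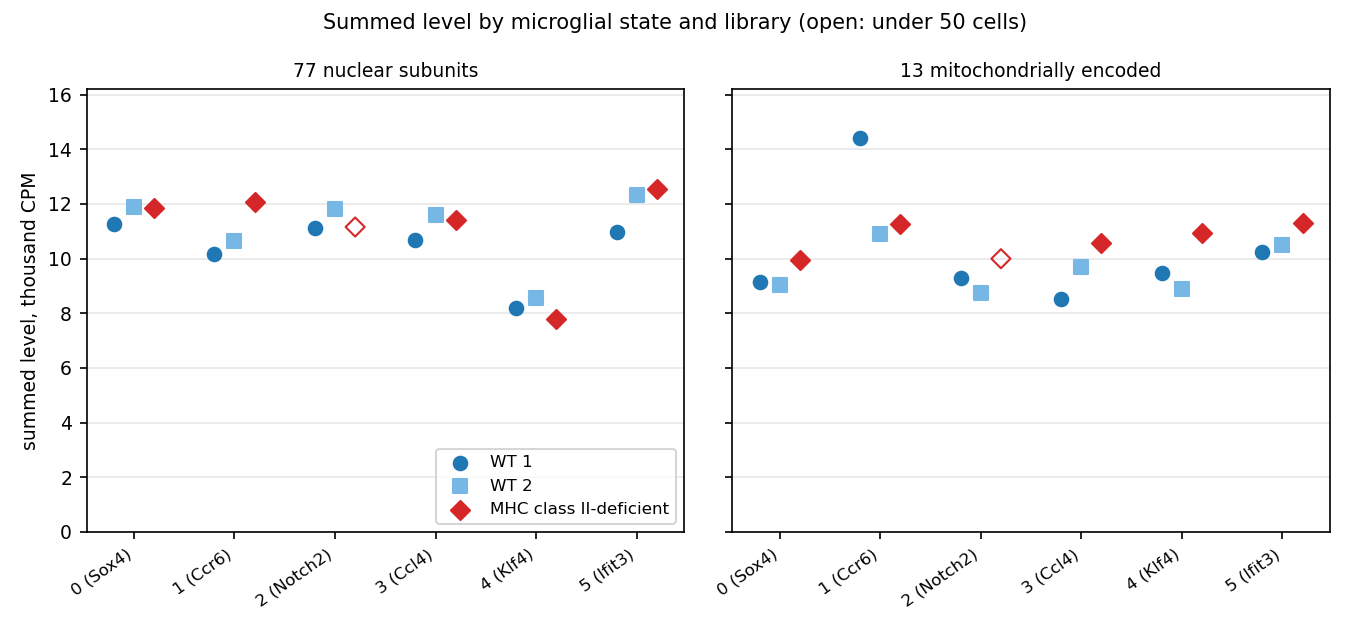
Summed level of the 77 nuclear subunits (left) and the 13 mitochondrially encoded members (right), in units of 1000 CPM, by microglial state (number and a leading gene), with 1 point for each library and open points for fewer than 50 cells. State 4 is lowest on the left in all 3 libraries and not on the right, where WT 1 of state 1 is highest.

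State 1, led by Ccr6 and Tagap1, held 1783 of the 2202 deficient microglia and 110 and 228 WT cells, so it is largely the deficient library. Its mitochondrial genes summed to 14404, 10898 and 11252 CPM, 1.57, 1.21 and 1.13 times state 0 of the same library. The few WT cells of this state were shallow, with median depths of 2005.5 and 2304 UMIs against 3175 and 3226 in state 0. Per cell, mitochondrial genes gave 28.1, 25.1 and 31.5 UMIs in state 1 against 30.4, 30.8 and 30.1 in state 0. The higher share in WT cells of state 1 thus went with low depth and not with more mitochondrial UMIs.

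Within state 0 alone, the 54 deficient cells had mitochondrial genes at 9951 CPM against 9158 and 9032 CPM, a log2 ratio of 0.13 to the WT mean, and nuclear subunits at 11867 against 11253 and 11891 CPM. No member was called there by edgeR. Of 103 members 7 had an unadjusted p under 0.05, a smaller share than the 952 of all 11050 genes tested there. This direction depended on the clustering. With members among the variable genes, state 0 had mitochondrial sums of 9802 (WT 1), 9233 (WT 2) and 8475 CPM (deficient, 70 cells). The state led by Ccr6 and Tagap1 then had 13477, 13486 and 11488 CPM, so the deficient library was lowest in both. The cause was not tested. Because most deficient cells are in state 1 and most WT cells in state 0, state and genotype cannot be told apart for the mitochondrial share of the whole class.

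State 2, led by Notch2, had nuclear and mitochondrial ratios to state 0 of 0.987 and 1.01 in WT 1 and 0.995 and 0.967 in WT 2. State 3, led by the chemokines Ccl3 and Ccl4, had nuclear ratios of 0.949, 0.976 and 0.963. State 5, led by interferon-induced genes such as Ifit3, had 65, 69 and 60 cells, nuclear ratios of 0.976, 1.04 and 1.06 and mitochondrial ratios of 1.12, 1.16 and 1.14, above 1 in each library.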

How the data were processed

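Single cells were measured in 3 droplet libraries (10x 3′ chemistry, version 2), 1 per mouse. As deposited, the tables give raw counts of UMIs for each gene and barcode. Per the submitters' processing notes, Cell Ranger 3.0, Seurat 2.2 and build mm10 were used. The sources used here do not give the authors' filters. Members and lists were chosen with earlier results of these data known.

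Limits were set to leave out barcodes under 500 UMIs or 200 genes, or over 10% mitochondrial UMIs. The highest mitochondrial share of any deposited barcode was 8.86% (WT 1), 9.66% (WT 2) and 8.98% (deficient). The 10% limit therefore removed no barcode, and cells above these shares are absent from the deposited counts. The limits on UMIs and genes kept 4340, 4667 and 2257 cells. They were clustered with scanpy 1.11.5 and leidenalg 0.10.2 (2000 variable genes, 30 components, resolution 1), leaving members, mitochondrial, MHC class II and sex-linked genes out of the variable genes. Microglia were clustered again at resolution 0.5. Classes with fewer than 20 cells and states with fewer than 50 cells in a library were not compared. Scrublet marked 29 of 11264 cells (0.257%), too few for a working caller, so doublets were kept and their removal is an alternative.

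UMIs of microglia were summed per library, and genes listed in all 3 tables were tested with the edgeR 4.0.16 quasi-likelihood test (R 4.3.3, TMM scaling, filterByExpr, Benjamini-Hochberg, threshold 0.05). The spread came from the WT pair with 1 residual degree of freedom, and the deficient group has 1 library. On simulated counts of 11859 genes for this comparison, 49.6% of genes raised by a log2 of 0.5 and 100% raised by 1 were called, and 34.0% of those at -0.5 and 97.2% at -1, with 1.96% of calls false. DESeq2 1.42.0 and limma 3.58.1 (voom) were alternatives, with other scaling, gene and cell filters, thinning and clusterings. Classes and states are described without a test.

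Members named in the text were every mitochondrial member, the 3 nuclear subunits with the highest count of each complex, those past the threshold and the listed isoforms. Of the pathway lists, highest and called genes were named. The 3 highest and lowest ratios of nuclear subunits were named for neutrophils, classical monocytes, border-associated macrophages and state 4, and not for the other states. Shares and floors of 3 UMIs cover counting error only. The last 300 bases of 104 members were compared with all transcripts. At 95% identity over 100 bases or more, 25 members matched a transcript of another gene, on either strand. For 4 of them a matching gene was listed in the tables. Copies, overlapping genes and repeats were not told apart. Of the mitochondrial members 7 matched pseudogenes on nuclear chromosomes, none of them listed, and mt-Cytb had no match.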

Additional observations from a re-analysis of the deposited data

Results flagged for a closer look

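Nuclear subunits in state 1, led by Ccr6 and Tagap1, stood on different sides of state 0 in the 2 genotypes. The log2 ratio of their sum to state 0 was 0.025 in the deficient library, against -0.15 (WT 1) and -0.16 (WT 2). The difference was not tested. It was not seen with members among the variable genes. There the state led by Ccr6 and Tagap1 had nuclear sums of 12313 (WT 1), 12399 (WT 2) and 12157 CPM (deficient). State 0 had 11362.5, 11976.5 and 12050 CPM, lower in each library. State 0 has 54 cells in the deficient library and state 1 has 110 and 228 in the WT libraries.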

How the results depend on the processing

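No paired analysis was possible, since the sample labels name no pairs and replicate numbers only count libraries within a group. The number of members called higher was 1 under 9 of the alternatives (no TMM factors, no filter on low counts, strict or no cell filter, members among the variable genes, resolution 0.5, Scrublet calls left out, limma voom and DESeq2). It was 0 with mitochondrial genes left out, 0 with all retained cells (mt-Cytb 0.45, adjusted p = 0.0895), 0 in the main WT state alone, 4 without stress states and 6 after thinning to 1000 UMIs, of which 2 are nuclear. No member was called lower in any of them. The adjusted p of mt-Cytb ran from 0.000511 to 0.0895 outside the main WT state, where it was not called and its log2 ratio was 0.22. Counts over all genes were 195 higher and 781 lower, against 112 and 714 with all cells and 157 and 644 by limma voom. They were 55 and 433 by DESeq2, 27 and 89 in the main WT state, 276 and 789 without stress states, and 166 and 597 after thinning. Signs turned for mt-Nd5 (-0.0055) and Cox6a2 (-0.11) without stress states, Sdha without TMM factors (-0.0050) and without Scrublet calls (-0.0073), and Uqcrq (-0.056) and Atp5l (-0.0070) with all cells. The mitochondrial log2 ratio of 0.28 was 0.29 with all cells and 0.13 in the main WT state. Within that state its sign turned with members among the variable genes, as given with the states. For the ratio of mitochondrial to nuclear subunit UMIs, the log2 of deficient over WT mean was 0.18 in all microglia and 0.092 in that state. The mitochondrial log2 ratio ran from 0.27 to 0.28 when either WT library was left out, and the nuclear one from 0.05 to 0.15. Thinning moved mean log2 mitochondrial ratios to microglia to -1.01 in neutrophils, 0.52 in border-associated macrophages and 0.76 in classical monocytes. With members among the variable genes, mean log2 nuclear ratios to state 0 were 0.060 in state 1 and -0.10 in state 3. The mean log2 mitochondrial ratio of state 4 was -0.081. With first-round clusters, mean log2 nuclear ratios were -0.20, -0.62 and -0.082 in states 3, 4 and 5, and mitochondrial ones -0.077 and -0.0093 in states 4 and 5. The cause of these changes was not tested.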

Other observations

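A small first-round microglial cluster led by Lpl, Cst7, Itgax and Csf1 had 32, 60 and 26 cells. Its nuclear subunits summed to 13379, 15211 and 14636 CPM in WT 1, WT 2 and the deficient library, 1.10, 1.21 and 1.13 times the first cluster of the same library, which has 22 deficient cells. Its mitochondrial genes summed to 11634, 13863 and 13612 CPM, 1.15, 1.44 and 1.23 times.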
